A study of Mus musculus with 6 samples.

Results

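Solute carriers are the membrane proteins that move amino acids, sugars, ions, metals, nucleosides and vitamins across the plasma membrane and the membranes of vesicles and organelles, and their genes carry the symbol Slc with a family number. The 120 genes described here were taken by name and abundance from the 41721 genes of the count table. Of 332 protein-coding genes whose name has an Slc family number, the letter a and a member number, 51 were left out, namely the mitochondrial *Slc25a* family with *Slc2a1*, *Slc2a3*, *Slc16a1* and *Slc16a3*. Of the remaining 281 genes, 120 had a count of at least 300 summed over the 6 libraries, and 161 did not. The 120 genes were thus selected on the count summed over both genotypes, and the rule itself used no other measured value. The members were, however, chosen with earlier results of these data known, so the choice was not blind to them. The genes nearest to that limit were *Slc1a3* (300 counts) and *Slc9a9* (315 counts) inside it and *Slc43a1* (292 counts) and *Slc23a1* (285 counts) outside it.

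The cells were mouse aortic smooth muscle cells (MASMCs) grown from abdominal aortas of 2 genotypes, Pdk4fl/fl and Pdk4SMKO, and treated with Ang II, and RNA-seq was run on 3 libraries of each genotype. *Pdk4* encodes a kinase that switches off pyruvate dehydrogenase, the enzyme that passes pyruvate into the tricarboxylic acid cycle. In Pdk4fl/fl mice, made on C57BL/6J, loxP sites lie on both sides of exons of *Pdk4*, and Pdk4SMKO mice carry in addition a tamoxifen-inducible Cre driven by the promoter of *Myh11*, a smooth muscle gene. That transgene sits on the Y chromosome, so all animals were male, and both genotypes received tamoxifen at 6 weeks of age. Cells were isolated at 10 weeks and used after 4 to 8 passages, and their purity was judged by staining for ACTA2. The study's supplement gives 1 µM Ang II for 48 h for this experiment, while the labels name Ang II alone. There was no library without Ang II, and the control cells carried no Cre. The supplement calls the libraries of a genotype biological replicates, but the labels do not say whether each came from a separate animal, so the spread between libraries may in part be technical.

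Carriers of the plasma membrane set what a cell takes up and gives off, and most of them are paired with others that carry the same solute the opposite way or across another membrane. In smooth muscle they are known for cell volume and chloride (the cation-chloride cotransporters), intracellular calcium (the sodium-calcium exchanger), intracellular pH (the sodium-proton and bicarbonate carriers) and phosphate, whose uptake is tied to calcification of the vessel wall. Members of one family often carry the same solute with a different affinity or in a different membrane.

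The libraries held 16526044 to 22481670 counts each. Values are given as CPM, the counts brought to a common library size by edgeR's TMM factors, with the mean ± SD over 3 libraries of a genotype, and log2 fold changes are those of Pdk4SMKO against Pdk4fl/fl with their SE. *Pdk4* itself was at 38, 35.1 and 31.9 CPM in the Pdk4fl/fl libraries and at 4.83, 9.06 and 6.92 CPM in the Pdk4SMKO libraries, a log2 fold change of -2.34 (SE 0.22, edgeR adjusted p = 4.49e-06). Libraries of one genotype correlated at 0.985 or more and those of different genotypes at 0.781 or less over all genes. Smooth muscle markers did not move as a block: *Acta2*, *Myh11*, *Lmod1* and *Des* were called higher in Pdk4SMKO, *Tagln*, *Cnn1* and *Smtn* lower, and their sum was 785 to 811 CPM against 723 to 954 CPM. All 7 tested mesothelial markers were called higher in Pdk4SMKO, their sum running from 74.2 to 99.99 CPM in Pdk4fl/fl and from 723 to 1325 CPM in Pdk4SMKO, with *Upk1b*, *Krt18* and *Wt1* at 3 counts or fewer in every Pdk4fl/fl library. Of 7 fibroblast markers, *Dcn*, *Lum* and *Fbln1* were called higher, *Dpt* was lower, and *Pdgfra*, *Pi16* and *Scara5* were not called. Their sum, to which *Dcn* gave the most, was 122 to 150 CPM against 307 to 634 CPM. These sums differ by genotype as the carriers do, and their part in the values below was not tested. In bulk RNA, fewer cells of a type and less RNA per cell cannot be told apart.

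All 120 genes passed the filter on low counts. A gene was called when the edgeR quasi-likelihood test, adjusted over 14085 genes, gave an adjusted p under 0.05 and the fold was at least 2. Of the 120 genes, 77 (64.2%) were called, where 59.3% of all tested genes were. Lower in Pdk4SMKO were 28 (23.3%, against 26.5% of all genes), higher were 49 (40.8%, against 32.8%), and 43 were not called. The share of called genes thus lay near that of the whole table. In 107 of the 120 (89.2%, against 81.8% of all genes) the 3 libraries of one genotype lay wholly above those of the other. The median log2 fold change was 0.49 for the 120 and 0.12 for all genes, and the middle of the 120 values ran from -0.87 to 1.59 at the quartiles. With library size alone in place of the TMM factors, which moved the median of all genes to 0.72, 16 were lower and 63 higher, so calls near a fold of 2 depend on that scaling. The exact two-sided permutation test on single genes cannot go below 0.1 with 3 libraries against 3, the value that every gene without overlap took.

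Abundance let genes in through either genotype, so a gene that is nearly silent in one genotype had to differ. Of the 120, 10 had fewer than 100 counts over the Pdk4fl/fl libraries, all called higher, and 6 had fewer than 100 over the Pdk4SMKO libraries, all called lower. Among the 120 were 116 carriers and 4 genes that share the name pattern without being carriers. The name also does not fix a membrane: the products of the *Slc35a* genes, *Slc33a1*, *Slc37a4*, *Slc30a5* and *Slc30a7* are known from the endoplasmic reticulum and the Golgi apparatus, not from the plasma membrane. The spans of 28 genes overlap another gene with at least 30 counts, and in 13 of these the other gene had as many counts or more, which is given beside those named below. Whether the authors' counting used strand is not given in the sources used here.

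The abundant carriers were in part the same in the 2 genotypes. In Pdk4fl/fl cells 17 carriers had a mean above 100 CPM and in Pdk4SMKO cells 16, of which 8 were above it in both (47.1% and 50% of the lists). Per kilobase of gene model, the Pdk4fl/fl cells were led by *Slc3a2* at 226 CPM, followed by *Slc20a1* at 104, *Slc38a2* at 81.8 and *Slc12a4* at 72.6 CPM. The Pdk4SMKO cells were led by *Slc38a2* at 119 CPM per kilobase, followed by the heme carrier *Slc48a1* at 102, the choline carrier *Slc44a2* at 80.2 and *Slc3a2* at 53.9 CPM per kilobase. Summed over the 120 genes, the TMM-scaled level ran from 6514 to 7444 CPM in Pdk4fl/fl and from 6263 to 6989 CPM in Pdk4SMKO. These ranges overlap, which depends on TMM factors of 0.784 to 0.838 in Pdk4fl/fl and 1.21 to 1.26 in Pdk4SMKO. Unscaled, the 120 genes held 86085 to 129458 counts per Pdk4fl/fl library and 140012 to 142651 per Pdk4SMKO library. Against library size alone, every Pdk4SMKO library lay above every Pdk4fl/fl library.

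**Figure D1:**
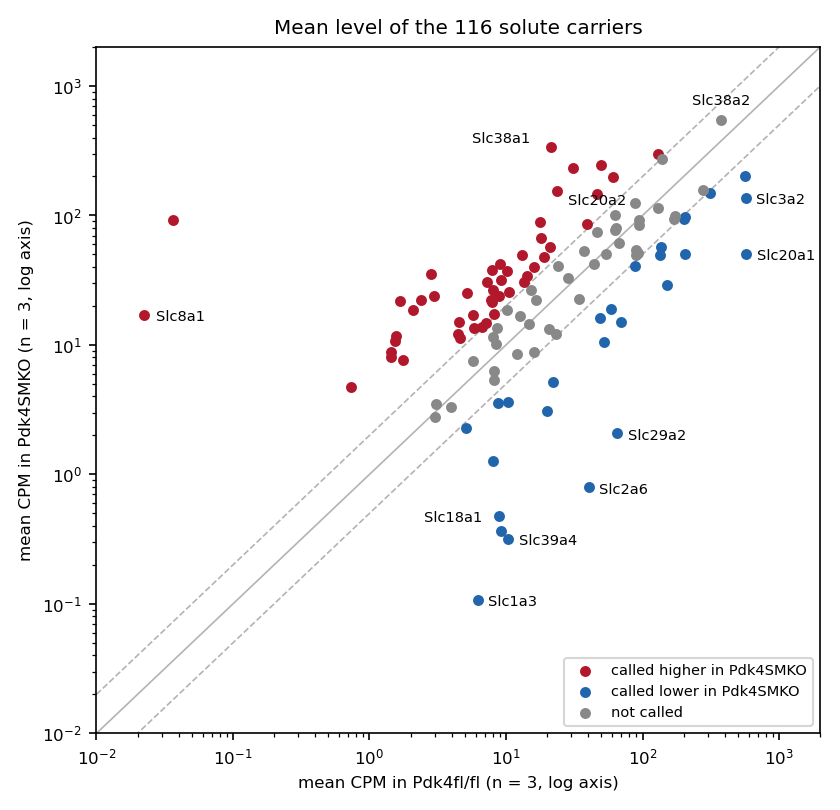
Mean CPM of each of the 116 carriers in Pdk4SMKO against that in Pdk4fl/fl (both log axes, n = 3 libraries each), coloured by call, with the solid line at equality and the dashed lines at a fold of 2. *Slc8a1* lies far above the line with under 0.1 CPM in Pdk4fl/fl, while *Slc1a3*, *Slc39a4*, *Slc2a6* and *Slc29a2* lie far below it.

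By family number the carriers fell into 40 families, 28 of which held at least 2 carriers. In 16 families some members were called lower and others higher. Of all tested genes 26.5% were called lower and 32.8% higher, so mixed calls in a family of several members are not particular to carriers. Calls went lower only in 5 families and higher only in 12, and 7 families had no call. Of families with at least 5 carriers, the Slc39 family of zinc importers had 6 of 10 higher and 1 lower, the Slc38 family 4 of 6 higher and 1 lower, and the *Slc35a* family 4 of 5 higher and none lower. The Slc7 family was split, with 2 of 7 lower and 2 higher, and so was the Slc12 family, with 2 of 6 in each direction. The Slc9 family had 1 of 6 lower and 2 higher, the Slc22 family 1 of 5 lower and 2 higher, and the Slc30 family 1 of 6 in each direction.

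**Figure D2:**
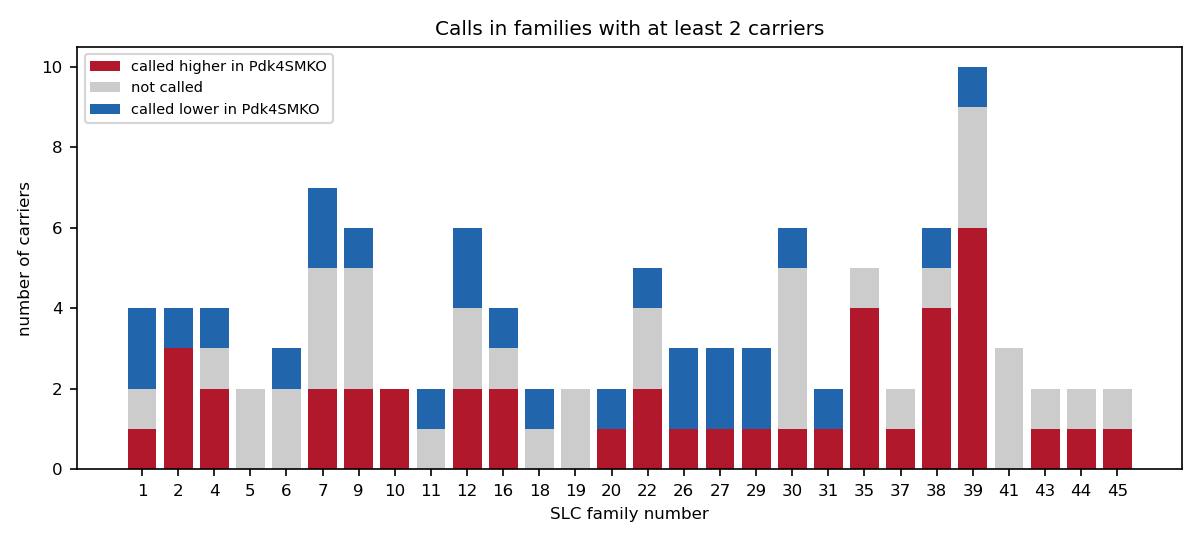
Number of carriers called higher (red), not called (grey) and called lower (blue) in Pdk4SMKO for each of the 28 families with at least 2 carriers, by SLC family number. Blue and red stand in the same bar in 16 families, among them families 1, 7, 12, 20, 29, 38 and 39.

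Carriers were also put into transport classes by family number alone, so a class can hold a member that carries another solute. The amino acid and peptide carriers were the largest class, with 8 of 25 lower, 9 higher and 8 not called. *Slc3a2* encodes the CD98 heavy chain, the partner that brings the Slc7 light chains to the plasma membrane. It was at 540.3, 583 and 589 CPM in Pdk4fl/fl and at 137, 145 and 126 CPM in Pdk4SMKO. All Pdk4SMKO libraries lay below all Pdk4fl/fl libraries, with a log2 fold change of -2.07 (SE 0.12, edgeR adjusted p = 1.49e-07).

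Its light chains differed among themselves. *Slc7a11*, the cystine-glutamate exchanger, was at 15, 11.9 and 13.5 CPM in Pdk4fl/fl and at 28, 31.8 and 32.2 CPM in Pdk4SMKO, a log2 fold change of 1.19 (SE 0.15, edgeR adjusted p = 3.92e-05). *Slc7a6*, which exchanges cationic for neutral amino acids, was at 53.3, 43.8 and 42.1 CPM and 125, 154 and 159 CPM, a log2 fold change of 1.65 (SE 0.14, edgeR adjusted p = 2.68e-06). For both genes every Pdk4SMKO library was above every Pdk4fl/fl library. *Slc7a5*, the exchanger of large neutral amino acids and the best known partner of *Slc3a2*, was at 100.5, 96.7 and 71.5 CPM and 63.4, 44.4 and 39.4 CPM and was not called (log2 fold change -0.87, edgeR adjusted p = 0.00223). Without the third Pdk4fl/fl library its log2 fold change was -1.02 and without the first Pdk4SMKO library -1.09, and it was then called lower.

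The cationic amino acid carriers that work without the heavy chain also differed among themselves. *Slc7a2*, which takes up arginine, was at 660.0, 529 and 509.5 CPM in Pdk4fl/fl and at 142, 217 and 246 CPM in Pdk4SMKO, a log2 fold change of -1.49 (SE 0.20, edgeR adjusted p = 6.42e-05). *Slc7a1*, the general arginine carrier, had 84.3, 68.4 and 35.3 CPM and 118, 97.3 and 87.5 CPM, with the third Pdk4fl/fl library well under the other 2, and was not called (log2 fold change 0.69). *Slc7a3* had 124, 152 and 98 counts in Pdk4fl/fl and 49, 11 and 23 counts in Pdk4SMKO, a log2 fold change of -2.63 (SE 0.40, edgeR adjusted p = 0.000147) that was -3.23 without the first Pdk4SMKO library. Per kilobase, the mean level in Pdk4fl/fl was 61.5 CPM for *Slc7a2*, 5.44 for *Slc7a1* and 2.18 for *Slc7a3*.

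Glutamine carriers of the Slc38 and Slc1 families moved in both directions. *Slc38a1*, a sodium-coupled importer of glutamine, was at 25.7, 19.5 and 19.3 CPM in Pdk4fl/fl and at 298, 342 and 374 CPM in Pdk4SMKO, a log2 fold change of 3.97 (SE 0.16, edgeR adjusted p = 2.62e-08). Its close relative *Slc38a2* was already at 425, 395 and 315 CPM in Pdk4fl/fl and at 445, 582 and 619.9 CPM in Pdk4SMKO, and was not called (log2 fold change 0.54, edgeR adjusted p = 0.0116). Per kilobase, the mean levels of *Slc38a1* and *Slc38a2* were 2.56 and 81.8 CPM in Pdk4fl/fl and 40.3 and 119 CPM in Pdk4SMKO.

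*Slc38a7*, a glutamine and asparagine carrier of the lysosome, was at 224, 226 and 169 CPM in Pdk4fl/fl and at 45.7, 55.3 and 49.5 CPM in Pdk4SMKO, a log2 fold change of -2.04 (SE 0.15, edgeR adjusted p = 7.93e-07). It was the only one of the 6 Slc38 members called lower. *Slc38a10*, *Slc38a6* and *Slc38a9*, the last a lysosomal sensor of arginine for mTORC1, were called higher with log2 fold changes of 2.32, 2.58 and 1.05, and *Slc38a9* lost its call at 0.96 without the second Pdk4fl/fl library. *Slc38a10* was at 49.2 ± 10.5 CPM against 246 ± 28.6 CPM (SD, n = 3), and *Slc38a6* had 11 to 40 counts in the Pdk4fl/fl libraries.

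In family 1, *Slc1a5*, the sodium-dependent glutamine exchanger, was at 91.1, 86.7 and 86.6 CPM in Pdk4fl/fl and at 38.4, 44.8 and 39 CPM in Pdk4SMKO, a log2 fold change of -1.11 (SE 0.12, edgeR adjusted p = 1.13e-05). This call was lost with upper-quartile factors and with library size alone. *Slc1a4*, the carrier of alanine, serine and cysteine, went the other way, with 9.53, 7.14 and 4.99 CPM and 30.3, 35.4 and 26.9 CPM and a log2 fold change of 2.09 (SE 0.23, edgeR adjusted p = 1.33e-05). *Slc1a3*, a glutamate carrier best known from astrocytes, had 96, 124 and 73 counts in Pdk4fl/fl and 4, 0 and 3 counts in Pdk4SMKO. Its fitted log2 fold change was -5.74 (SE 0.51, edgeR adjusted p = 3.06e-06), which rests on 7 counts over the Pdk4SMKO libraries and depends on the prior count of the fit.

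*Slc43a3*, placed with the amino acid carriers by its family number and known as a nucleobase carrier, was at 32.4, 30.5 and 30.7 CPM in Pdk4fl/fl and at 198, 249 and 256 CPM in Pdk4SMKO, a log2 fold change of 2.91 (SE 0.14, edgeR adjusted p = 5.28e-08). The peptide and histidine carrier of the lysosome, *Slc15a4*, was at 149, 153 and 152 CPM and 25.4, 31.9 and 29.7 CPM, a log2 fold change of -2.38 (SE 0.13, edgeR adjusted p = 1.01e-07). *Slc6a9*, the glycine carrier, was called lower at -2.70, but its span overlaps *B4galt2*, which had 1.75 times its counts and a log2 fold change of -1.84. The taurine carrier *Slc6a6* and the creatine carrier *Slc6a8* had log2 fold changes of -0.81 and -0.79 and were not called, though no Pdk4SMKO library reached the Pdk4fl/fl libraries.

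**Figure D3:**
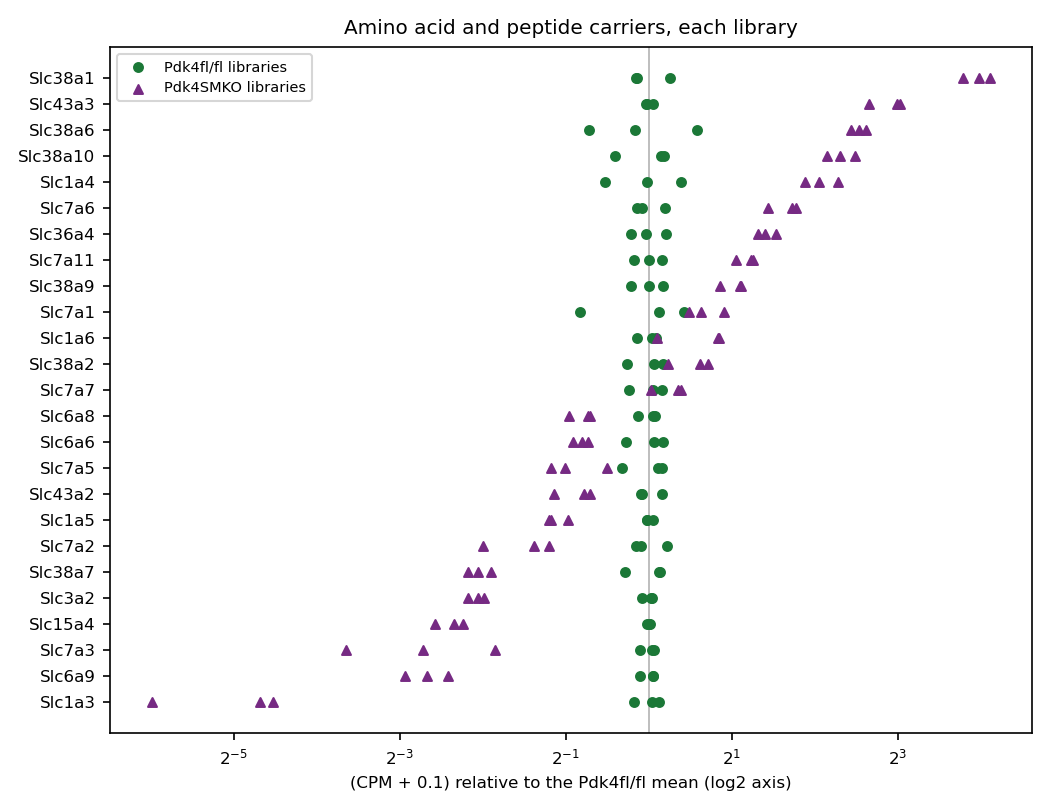
Level of the 25 amino acid and peptide carriers in each library, as (CPM + 0.1) divided by the same value for the Pdk4fl/fl mean (log2 axis), with circles for Pdk4fl/fl and triangles for Pdk4SMKO and genes ordered by log2 fold change. The triangles of *Slc38a1* and *Slc43a3* lie far to the right and those of *Slc1a3*, *Slc6a9* and *Slc7a3* far to the left.

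Of these carriers, 9 are commonly listed as targets of ATF4, the transcription factor of the amino acid response. Over all tested genes 26.5% were called lower and 32.8% higher. Of the 9, 4 were lower (*Slc3a2*, *Slc7a3*, *Slc6a9* and *Slc1a5*), 2 higher (*Slc7a11* and *Slc1a4*) and 3 not called (*Slc7a5*, *Slc38a2* and *Slc7a1*), with a median log2 fold change of -0.87. With TMM factors their summed level was 1142 to 1295 CPM in Pdk4fl/fl and 865 to 984 CPM in Pdk4SMKO. Those factors differ by genotype, and with library size alone this sum is not lower in Pdk4SMKO, so its direction depends on the scaling. *Atf4* itself was at 1133, 1164 and 1217 CPM in Pdk4fl/fl and at 225, 221 and 213 CPM in Pdk4SMKO, a log2 fold change of -2.42 (SE 0.12, edgeR adjusted p = 5.83e-08). Only RNA was measured here, and ATF4 protein was not. In RNA, the 2 members called higher were opposite in direction to *Atf4* and to the 4 members called lower.

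The promoters of both were read because ATF4 binds a composite element whose core is TGATGNAA. In RefSeq's promoter windows of GRCm38.p6, 250 bases before to 50 after a gene's start, this core or its reverse complement TTNCATCA stood in 1219 of 27025 genes (4.51%). Of the 92 members with a window it stood in 5 (5.43%), namely *Slc1a4*, *Slc7a11*, *Slc7a7*, *Slc9a9* and *Slc50a1*. The span of *Slc7a7*, which was not called at 0.26, overlaps *Oxa1l*, which had 6.63 times its counts. Of the 20 matched members called lower it stood in 0, of the 39 called higher in 2 and of the 33 not called in 3. Among the ATF4 list, 6 of 9 had a window and 2 of these held it, *Slc7a11* and *Slc1a4*. The 3 sites are shown on the strand of the gene, with the core in capitals and 11 bases on each side, because they belong to the 2 carriers of the list that were higher.
*Slc7a11*, chr3:50443661-50443690, minus strand, core from base -66: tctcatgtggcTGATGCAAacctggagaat
*Slc7a11*, chr3:50443642-50443671, minus strand, core from base -47: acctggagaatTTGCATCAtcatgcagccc
*Slc1a4*, chr11:20332699-20332728, minus strand, core from base -4: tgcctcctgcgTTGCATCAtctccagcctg
Positions are counted from the RefSeq start. The 2 sites of *Slc7a11* face each other in opposite orientation, and the second of them and the site of *Slc1a4* hold the same core letters. The first holds the reverse complement of these letters, so the 3 sites share the same core apart from its orientation. A match is a string of letters and says nothing of binding in these cells.

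*Slc20a1* and *Slc20a2* are the sodium-phosphate importers of type III and the main route of phosphate into smooth muscle. *Slc20a1* was at 606, 552 and 573 CPM in Pdk4fl/fl and at 70, 36.9 and 45.2 CPM in Pdk4SMKO, a log2 fold change of -3.51 (SE 0.22, edgeR adjusted p = 3.12e-07). *Slc20a2* was at 29, 23.1 and 18.9 CPM in Pdk4fl/fl and at 147, 157 and 161 CPM in Pdk4SMKO, a log2 fold change of 2.71 (SE 0.16, edgeR adjusted p = 2.14e-07). The libraries of the genotypes did not overlap for either gene. Per kilobase of gene model the mean levels of *Slc20a1* and *Slc20a2* stood at 104 and 6.49 CPM in Pdk4fl/fl and at 9.16 and 42.5 CPM in Pdk4SMKO. The 2 genes summed to a mean of 600.5 CPM in Pdk4fl/fl and 206 CPM in Pdk4SMKO.

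The nucleoside carriers of family 29 moved in both directions. *Slc29a1* and *Slc29a2* equilibrate adenosine and other nucleosides across the plasma membrane, and *Slc29a3* does so across the lysosomal membrane. *Slc29a2* was at 97.6, 68.3 and 29.7 CPM in Pdk4fl/fl and at 1.98, 2.39 and 1.86 CPM in Pdk4SMKO, a log2 fold change of -4.97 (SE 0.42, edgeR adjusted p = 1.99e-06). Its Pdk4fl/fl libraries were themselves wide apart, the third well under the first, but all 3 were far above the Pdk4SMKO libraries. *Slc29a1* was at 199, 192 and 226 CPM and 73.2, 110.3 and 107 CPM, a log2 fold change of -1.09 (SE 0.16, edgeR adjusted p = 0.000142), a call that was lost without the first Pdk4SMKO library, with upper-quartile factors and with library size alone. *Slc29a3* was at 3.4, 2.03 and 1.74 CPM in Pdk4fl/fl and at 20.2, 22.4 and 24.5 CPM in Pdk4SMKO, a log2 fold change of 3.22 (SE 0.25, edgeR adjusted p = 1.14e-06).

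**Figure D4:**
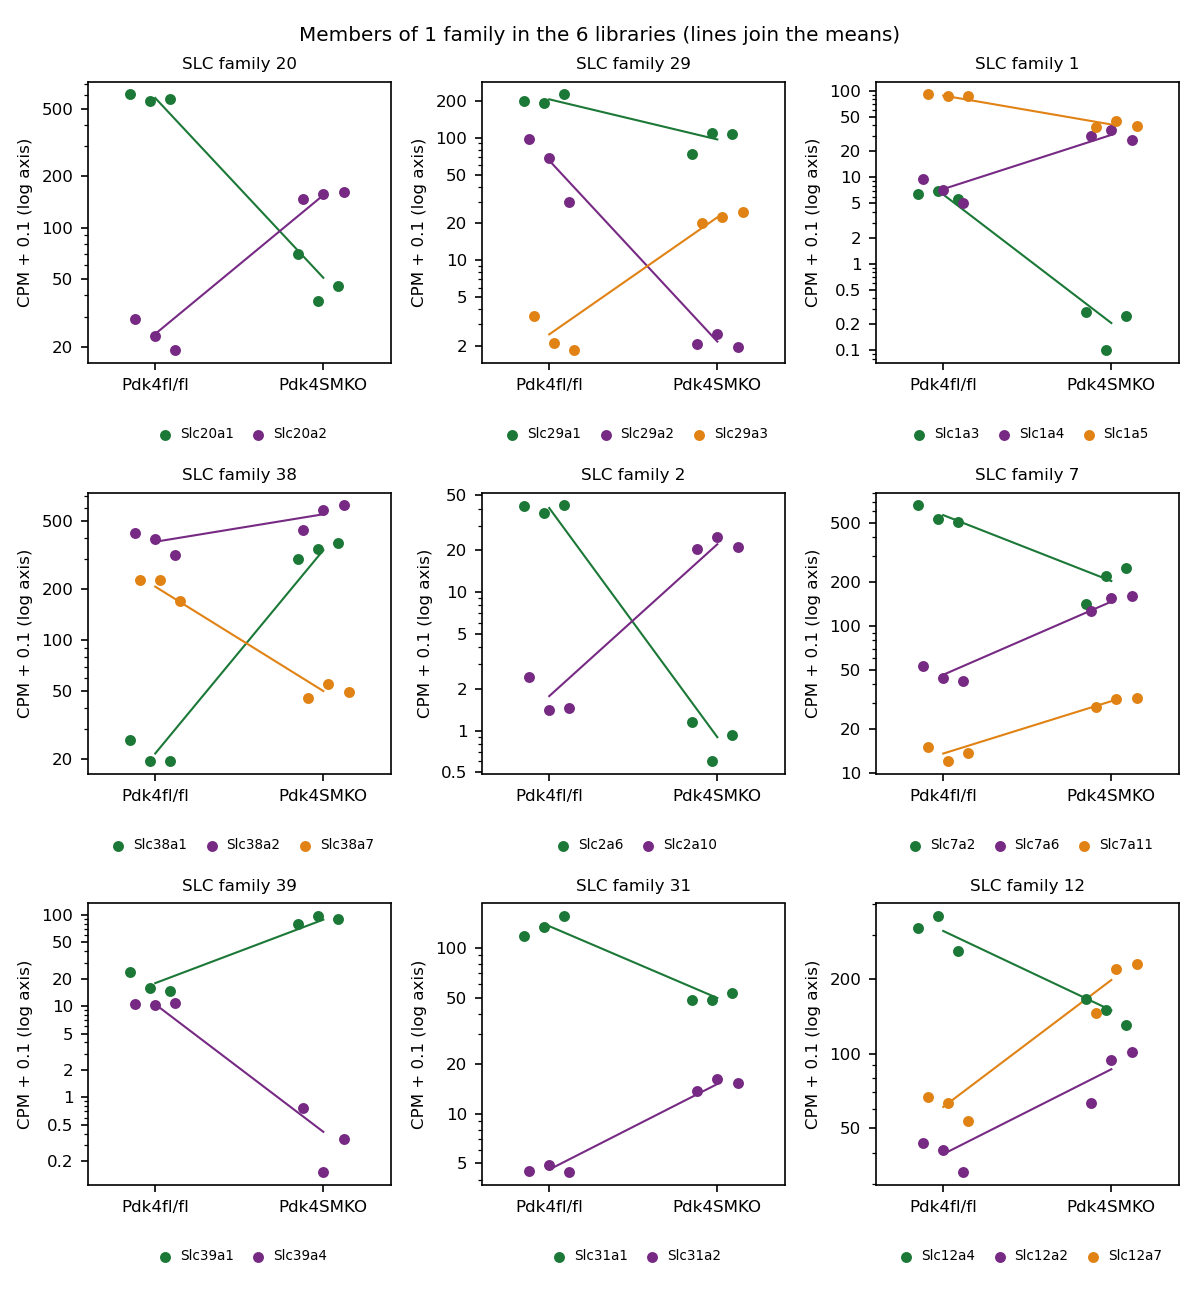
CPM + 0.1 (log axis) in each of the 3 libraries per genotype for members of 9 families, with lines joining the genotype means. The lines cross in families 20, 29, 38, 2 and 12, each of which holds members called in opposite directions.

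Of the 11 carriers placed by family number in the sugar, polyol and sugar phosphate class, after *Slc2a1* and *Slc2a3* were set aside, 1 was lower and 5 were higher. *Slc2a6*, a glucose carrier of lysosomal membranes, was at 41.7, 37 and 42.1 CPM in Pdk4fl/fl and at 1.05, 0.498 and 0.834 CPM in Pdk4SMKO, a log2 fold change of -5.64 (SE 0.24, edgeR adjusted p = 2.69e-08). *Slc2a10*, whose loss causes arterial tortuosity in humans, was at 2.33, 1.32 and 1.36 CPM and 20.2, 24.8 and 20.9 CPM, a log2 fold change of 3.72 (SE 0.25, edgeR adjusted p = 4.05e-07). Per kilobase, the mean levels of *Slc2a6* and *Slc2a10* were 12.5 and 0.468 CPM in Pdk4fl/fl and 0.248 and 6.16 CPM in Pdk4SMKO. *Slc37a4*, which carries glucose 6-phosphate into the endoplasmic reticulum, was called higher at 2.87 with 17, 39 and 19 counts against 294, 225 and 222 counts, and so was the urate carrier *Slc2a9* at 2.66 with 7 to 19 counts in the Pdk4fl/fl libraries. *Slc5a3*, the sodium-coupled importer of the osmolyte myo-inositol, had 76.3, 52.9 and 64 CPM and 39.3, 99.4 and 103 CPM and was not called, with the first Pdk4SMKO library below all 3 Pdk4fl/fl libraries and the other 2 above them. Its span overlaps *Mrps6*, which had 1.74 times its counts.

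Among the 8 cation-chloride cotransporters and sodium-calcium exchangers, *Slc8a1* differed most. This gene encodes the sodium-calcium exchanger that extrudes calcium from muscle cells. It had 1, 0 and 0 counts in the Pdk4fl/fl libraries and 264, 403 and 400 counts in the Pdk4SMKO libraries. The ratio of the summed levels was 783, with a 95% interval of 140.3 to 30962 that covers counting error only, since it rests on 1 count. All 3 Pdk4fl/fl libraries were at or under 3 counts, the floor used here for detection.

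The chloride carriers moved in both directions. *Slc12a2*, the sodium-potassium-chloride cotransporter that loads smooth muscle with chloride, was at 43.8, 41 and 33.1 CPM in Pdk4fl/fl and at 63.4, 94.3 and 102 CPM in Pdk4SMKO, a log2 fold change of 1.14 (SE 0.19, edgeR adjusted p = 0.000277). Of the potassium-chloride cotransporters, which let chloride out, *Slc12a7* was higher with 66.6, 63 and 53.3 CPM and 145, 219.8 and 229 CPM and a log2 fold change of 1.70 (SE 0.18, edgeR adjusted p = 1.17e-05). *Slc12a4* was lower with 320.3, 358 and 258 CPM and 167, 151 and 131 CPM and a log2 fold change of -1.06 (SE 0.15, edgeR adjusted p = 8.87e-05). The call of *Slc12a4* was lost without the second Pdk4fl/fl library, without the third Pdk4SMKO library, with upper-quartile factors and with library size alone. The orphan member *Slc12a9* was called lower at -1.63. The kinases that act on this family were measured beside it: *Wnk1* was at 52.5 CPM against 416 CPM and *Wnk4* at 4.71 CPM against 32.4 CPM, both called higher at 2.99 and 2.78, while *Stk39* and *Oxsr1* were not called at -0.00 and 0.53.

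Of 13 bicarbonate, chloride and proton exchangers, 4 were lower, 5 higher and 4 not called. *Slc9a5*, a sodium-proton exchanger, was at 73.7, 76.5 and 58 CPM and 16.51, 14.9 and 13.7 CPM, a log2 fold change of -2.20 (SE 0.15, edgeR adjusted p = 5.19e-07). *Slc9a8*, an exchanger of the Golgi apparatus, was called higher at 1.44.

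The bicarbonate carriers were split as well. *Slc4a2*, the chloride-bicarbonate exchanger, was at 209, 233 and 164 CPM and 107, 93.7 and 79.2 CPM, a log2 fold change of -1.12 (SE 0.16, edgeR adjusted p = 0.000107) whose call was lost without the second Pdk4fl/fl library, with upper-quartile factors and with library size alone. *Slc4a4*, a sodium-bicarbonate importer, was at 21.2, 18 and 17.9 CPM and 63.9, 39.2 and 39.6 CPM, a log2 fold change of 1.32 (SE 0.20, edgeR adjusted p = 0.000165), with the first Pdk4SMKO library above the other 2. *Slc4a7*, the electroneutral sodium-bicarbonate carrier of arteries, had overlapping libraries at 43.8 ± 4.39 CPM and 42 ± 8.12 CPM (SD, n = 3). *Slc4a3* was called higher at 1.24. In the sulfate and anion family *Slc26a2* was higher at 1.44, while *Slc26a6* and *Slc26a11* were lower at -2.09 and -1.59.

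Of 23 metal carriers, 4 were lower, 8 higher and 11 not called. The Slc39 proteins bring zinc into the cytosol and the Slc30 proteins take it out. *Slc39a1*, *Slc39a10*, *Slc39a9*, *Slc39a3*, *Slc39a11* and *Slc39a8* were higher, at log2 fold changes of 2.32, 2.24, 1.87, 1.72, 1.41 and 1.07. *Slc39a8* lost its call without the first Pdk4SMKO library, and *Slc39a11* shares its span with Cog1, which had 1.29 times its counts. *Slc39a10* was at 9.73, 7.8 and 6.28 CPM in Pdk4fl/fl and at 40.2, 35.7 and 37.1 CPM in Pdk4SMKO. *Slc39a4*, known from the intestine, was the exception in the family with 155, 185 and 140 counts against 15, 1 and 5 counts, a log2 fold change of -4.95 (SE 0.48, edgeR adjusted p = 5.57e-06) that was -6.05 without the first Pdk4SMKO library. *Slc39a14*, a carrier of zinc and iron, had 94.4 ± 17.1 CPM and 84.1 ± 7.04 CPM (SD, n = 3), with overlapping libraries.

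The gene model named *Slc39a1* needs care. It was at 23.3, 15.6 and 14.4 CPM and 78.8, 96.3 and 90.5 CPM, but the table places it on chromosome 2 from 29301450 to 29309189, within the span of *Golga2*, which had 2.01 times its counts. RefSeq's table of GRCm38.p6 places *Slc39a1* on chromosome 3. A gene model without a name on chromosome 3 carries the same description and had 108, 103 and 107 counts against 655, 727 and 555 counts, a log2 fold change of 2.14. Reads of the gene may thus be split between both models, and both were called higher.

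Among the exporters, *Slc30a1*, the zinc exporter of the plasma membrane, was at 2.2, 1.32 and 1.06 CPM in Pdk4fl/fl and at 8.21, 12.8 and 11.3 CPM in Pdk4SMKO, a log2 fold change of 2.81 (SE 0.31, edgeR adjusted p = 1.52e-05). *Slc30a5* of the early secretory pathway was lower, with 136 ± 9.88 CPM and 56.6 ± 2.23 CPM (SD, n = 3) and a log2 fold change of -1.26 (SE 0.12, edgeR adjusted p = 3.69e-06). *Slc30a4* was not called at -0.86. The metallothionein genes, whose products bind zinc and copper, were not higher: *Mt1* was called lower at -1.84 and *Mt2* was not called at -0.40. In a list of 8 genes of zinc, copper and iron handling, 7 had a row in the table. Of these, 3 were lower (*Mt1*, *Hmox1* and the copper pump *Atp7a*), none was higher, and *Mt2*, *Tfrc*, *Fth1* and *Mtf1* were not called. Among all tested genes 26.5% were called lower and 32.8% higher.

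The copper pair went opposite ways. *Slc31a1*, the high-affinity copper importer, was at 117, 132 and 154 CPM in Pdk4fl/fl and at 47.9, 48 and 52.9 CPM in Pdk4SMKO, a log2 fold change of -1.44 (SE 0.13, edgeR adjusted p = 4.13e-06). *Slc31a2*, found on late endosomes and lysosomes, was at 4.4, 4.78 and 4.31 CPM and 13.6, 16.02 and 15.3 CPM, a log2 fold change of 1.73 (SE 0.18, edgeR adjusted p = 9e-06). Per kilobase, the mean levels of *Slc31a1* and *Slc31a2* were 31.5 and 2.64 CPM in Pdk4fl/fl and 11.6 and 8.79 CPM in Pdk4SMKO. In the iron and manganese family, *Slc11a2* had 129 ± 9.69 CPM and 115 ± 26.7 CPM (SD, n = 3) with overlapping libraries.

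*Slc11a1*, the metal carrier of phagosomes and known as a macrophage gene, had 116, 176 and 134 counts in Pdk4fl/fl and 5, 4 and 14 counts in Pdk4SMKO, a log2 fold change of -4.63 (SE 0.41, edgeR adjusted p = 3.08e-06) that was -5.40 without the third Pdk4SMKO library. The macrophage markers *C1qa*, *C1qb*, *C1qc*, *Adgre1* and *Tyrobp* had no count in any Pdk4fl/fl library. Of the 8 macrophage markers, 6 were higher, 1 (*Cd68*) was lower and 1 was not tested. Their sum was 21.4 to 38.2 CPM in Pdk4fl/fl against 11.7 to 37.8 CPM in Pdk4SMKO. *Cd68* gave nearly all of the sum in Pdk4fl/fl, at 37.9, 34.5 and 21.3 CPM, against 6.81, 3.14 and 2.94 CPM in Pdk4SMKO.

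**Figure D5:**
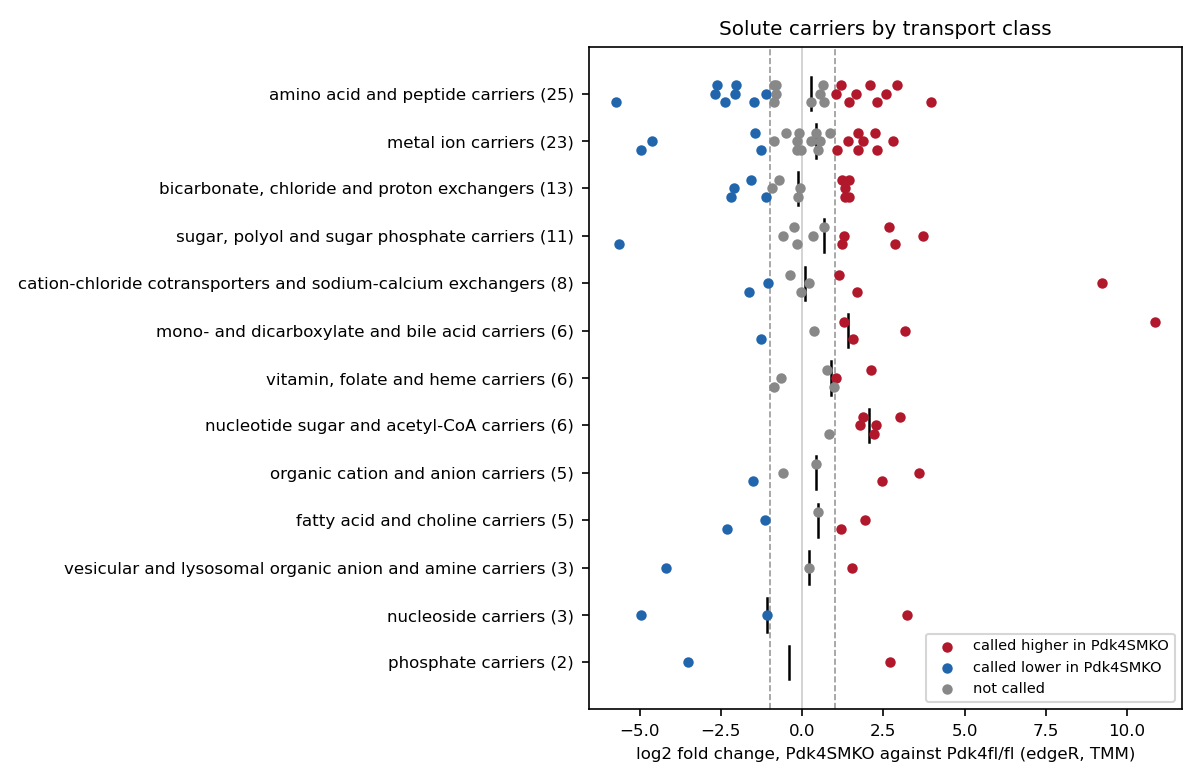
Fitted log2 fold change (Pdk4SMKO against Pdk4fl/fl) of the 116 carriers by transport class, with the number of carriers in brackets, a short black line at each class median and dashed lines at a fold of 2 in either direction. All 6 nucleotide sugar and acetyl-CoA carriers lie to the right of 0, while most other classes spread to both sides.

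The nucleotide sugar carriers with an *Slc35a* name and the acetyl-CoA carrier *Slc33a1*, which feed glycosylation and acetylation in the secretory pathway, had 5 of 6 members higher and none lower. The other Slc35 genes fell outside the name pattern and were mixed. Of those with at least 300 counts, *Slc35e2* and *Slc35f5* were called lower, and *Slc35c1*, *Slc35d1*, *Slc35d2* and *Slc35g1* higher. The rest were not called. Of these, *Slc35b4*, *Slc35f6*, *Slc35e1*, *Slc35b2* and *Slc35b3* were at 0.90, 0.86, 0.71, 0.49 and 0.49. *Slc35c2*, *Slc35b1* and *Slc35e4* were at -0.92, -0.25 and -0.07. *Slc33a1* was at 3.2, 2.91 and 2.72 CPM in Pdk4fl/fl and at 26.6, 20.4 and 24.2 CPM in Pdk4SMKO, a log2 fold change of 3.00 (SE 0.19, edgeR adjusted p = 2.75e-07). *Slc35a2*, which carries UDP-galactose, was at 10.5, 9.77 and 10.2 CPM and 41.1, 36 and 34.8 CPM, a log2 fold change of 1.88 (SE 0.14, edgeR adjusted p = 9.77e-07). *Slc35a5* and the CMP-sialic acid carrier *Slc35a1* were called higher at 2.28 and 1.79. No library of one genotype reached those of the other in any of the 6 genes. *Slc35a4* was also called higher at 2.21, but overlaps *Sra1*, which had 2.77 times its counts and a log2 fold change of 1.55. *Slc35a3*, which carries UDP-N-acetylglucosamine, was at 15.2 ± 2.82 CPM and 26.7 ± 3.22 CPM (SD, n = 3), short of a fold of 2 at 0.81. The 6 genes summed to 51.8 CPM in Pdk4fl/fl and 187 CPM in Pdk4SMKO on average. They keep this direction under each of the scaling alternatives run.

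The 6 mono- and dicarboxylate and bile acid carriers, without the lactate carriers *Slc16a1* and *Slc16a3*, had 4 members higher and 1 lower. *Slc10a3* and *Slc10a7* were called higher at 3.16 and 1.28 and *Slc16a4* at 1.57, and *Slc10a3* overlaps *Ubl4a*, which had 2.83 times its counts and a log2 fold change of -0.80. *Slc16a6* was called lower at -1.27 and shares its span with Arsg and *Amz2*, and *Amz2* had 4.34 times its counts.

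Of 6 vitamin, folate and heme carriers, 2 were higher and none was lower. *Slc46a1*, the proton-coupled folate carrier, was at 1.76 ± 0.502 CPM in Pdk4fl/fl and 7.71 ± 0.819 CPM in Pdk4SMKO (SD, n = 3), a log2 fold change of 2.13 (SE 0.27, edgeR adjusted p = 4.46e-05). The riboflavin carrier *Slc52a2* was called higher at 1.05, a call lost without the second Pdk4fl/fl library. *Slc48a1*, which brings heme from endosomes and lysosomes into the cytosol, was at 143, 127 and 143 CPM and 247, 296 and 282 CPM and fell just short of a fold of 2 (SE 0.12, edgeR adjusted p = 2.82e-05). It was called higher in several alternatives, among them those without the first or the third Pdk4fl/fl library or the first Pdk4SMKO library. *Slc23a2*, the vitamin C carrier, was not called at -0.85 and was called lower at -1.02 without the third Pdk4fl/fl library.

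Fatty acid and choline carriers were divided between families and within them. *Slc27a1*, a fatty acid carrier of muscle and fat, was at 58.2, 51.2 and 47 CPM in Pdk4fl/fl and at 9.35, 11.1 and 11.2 CPM in Pdk4SMKO, a log2 fold change of -2.30 (SE 0.15, edgeR adjusted p = 3.37e-07). *Slc27a4*, of the same function, was at 15.3, 13.9 and 9.84 CPM and 53.3, 51.4 and 44.5 CPM, a log2 fold change of 1.93 (SE 0.18, edgeR adjusted p = 4.01e-06). The table places *Slc27a4*, like *Slc39a1*, within the span of *Golga2*, which had 3.41 times its counts and a log2 fold change of -0.30. The choline carrier *Slc44a2* was at 138, 123 and 131 CPM and 278, 308 and 304 CPM, a log2 fold change of 1.18 (SE 0.11, edgeR adjusted p = 4.79e-06), and its relative *Slc44a1* was not called at 0.49.

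Of 5 organic cation and anion carriers, *Slc22a23* was at 4.4, 2.69 and 1.44 CPM in Pdk4fl/fl and at 42.5, 30.6 and 32 CPM in Pdk4SMKO, a log2 fold change of 3.61 (SE 0.32, edgeR adjusted p = 2.7e-06). *Slc22a15* was also called higher at 2.47. *Slc22a21*, a carnitine carrier, was called lower at -1.52, and *Slc22a17* was not called at 0.42.

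Of 3 vesicular and lysosomal carriers, *Slc17a5*, which exports sialic acid from lysosomes, was at 9.67, 7.8 and 5.83 CPM and 23.4, 20.9 and 22.9 CPM, a log2 fold change of 1.52 (SE 0.20, edgeR adjusted p = 4.62e-05). *Slc18a1*, which loads monoamines into vesicles, had 137, 169 and 108 counts against 7, 13 and 10 counts and was called lower at -4.20. Its span overlaps *Atp6v1b2*, which had 95.5 times its counts and was itself called lower at -2.62, so the counts of *Slc18a1* are uncertain.

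The 4 genes that only share the name pattern are partners of carriers or lie beside them. *Slc9a3r1*, a scaffold that anchors the sodium-proton exchanger of epithelia, was at 48.1, 49.5 and 45.1 CPM and 152, 137 and 114 CPM and was called higher (edgeR adjusted p = 3.53e-06). *Slc9a3r2* and *Slc4a1ap* were not called at 0.63 and -0.45. *Slc7a6os*, a gene beside *Slc7a6*, was called lower at -1.23, opposite to *Slc7a6* itself.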

How the data were processed

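RNA-seq counts of 6 MASMC libraries were used, 3 Pdk4fl/fl and 3 Pdk4SMKO, assigned to a group by the genotype label. The authors deposited raw counts, whole numbers of reads per gene, in 1 table with a column per library and no pooling. The submitters' processing notes name the build GRCm39, while the identifiers are those of Ensembl's C57BL/6NJ annotation. The aligner, the counting program and the use of strand are not given in the sources used here, and the study and the labels name different library kits (NEBNext Ultra and SMARTER). Counting against overlapping gene models can move reads between neighbours.

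Counts were fitted in R 4.3.3 with edgeR 4.0.16 (filterByExpr, TMM, quasi-likelihood test on genotype alone, Benjamini-Hochberg adjustment over the 14085 genes tested), with calls at a fold of at least 2 either way and an adjusted p below 0.05. CPM were computed with TMM-scaled library sizes and divided by the table's gene length for levels per kilobase. A count of 3 per library was the floor. Exact 95% intervals of ratios cover counting error only. The script was tested on simulated data in which few genes differed. That test does not bear on the scaling in these data, where 59.3% of the tested genes were called. An exact permutation test, two-sided, was run on single genes over the 20 splits, with a smallest p of 0.1.

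The members, the transport classes and the lists (ATF4-linked carriers, sodium pump, carrier partners, metal handling, SLCO family and cell markers) were chosen with earlier results of these data known. Named were, in each transport class, up to 2 members lowest and 2 highest in log2 fold change (called, no overlap, at least 10 CPM in the higher genotype) and the 2 most abundant, genes undetected in a genotype, 16 fixed names (15 of them members), the ATF4-linked carriers, the extremes of families called in both directions, *Pdk4*, the names that are no carriers and the genes nearest to the limit of 300 counts. These are 73 of the 120, of which a few are not reported here. The values of further members were chosen after they were seen: *Slc11a1*, *Slc38a10*, *Slc39a10*, *Slc35a1*, *Slc35a3*, *Slc22a15*, *Slc39a3*, *Slc39a9*, *Slc46a1*, *Slc38a6*, *Slc6a6*, *Slc6a8*, *Slc26a11*, *Slc16a4*, *Slc4a3*, *Slc2a9* and *Slc39a8*, and so were *Slc38a9*, *Slc39a11* and the overlapping neighbours.

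Alternatives were DESeq2 1.42.0, RLE, upper-quartile or no factors, no filter, at least 10 counts in every library, an unadjusted p, no limit on the fold, the replicate number as a block, each library left out, and limits of 100 or 1000 counts for the members. Promoter windows came from RefSeq (GRCm38.p6, 92 of 120 members matched by symbol), and no protein sequence was used here.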

Additional observations from a re-analysis of the deposited data

How the results depend on the processing

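Of the 120 members, 28 were called lower and 49 higher by edgeR, and the same numbers came from DESeq2, from RLE factors and with an unadjusted p. Of the 77 called members, 62 kept their call in every alternative other than those on the p and the fold. Of the 43 uncalled members, 13 stayed uncalled with the same sign in all of these. The other uncalled members either gained a call or only changed sign in some alternative. The scaling mattered most. With library size alone 16 members were lower and 63 higher, their median log2 fold change was 1.10, and 2390 genes of the table were lower. With upper-quartile factors 23 members were lower and 52 higher, and the median was 0.70. Leaving out each library in turn gave 26 to 30 members lower and 47 to 50 higher, a median of 0.40 to 0.57, 3682 to 3908 genes lower and 4630 to 4825 higher over the table, and a log2 fold change of *Pdk4* between -2.57 and -2.12. Of the members given with values, those whose sign turned were all uncalled. With upper-quartile factors *Slc4a7* was at 0.15, *Slc9a9* at 0.0898, *Slc11a2* at 0.0387, *Slc37a3* at 0.0627 and *Slc39a14* at 0.0425. With library size alone *Slc4a1ap*, which was at -0.45 with TMM factors, was at 0.15, *Slc4a7* at 0.54, *Slc9a9* at 0.49, *Slc11a2* at 0.43, *Slc37a3* at 0.46 and *Slc39a14* at 0.43. With at least 10 counts in every library *Slc4a7* was at 0.0395. With each library left out in turn, *Slc4a7* ran from -0.21 to 0.0645 and *Slc11a2* from -0.27 to 0.0218. With library size alone the calls of *Slc7a2*, *Slc7a6os*, *Slc16a6*, *Slc22a21*, *Slc26a11*, *Slc30a5* and *Slc31a1* were lost beside those named above. A limit of 100 counts gave 140 members and a limit of 1000 counts 98. The factors alone differ between these scalings, which is what moves the calls, and no other cause was tested.

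Replicate numbers are shared between the genotypes in the labels, but deviations from the genotype means correlated at 0.048, 0.095 and 0.234 for the 3 numbers, so the numbers were not taken to pair the libraries. With the replicate block 28 members were lower and 49 higher, the median was 0.49, 3704 genes were lower and 4577 higher over the table, and no call of a member given with values changed. Carriers at a few counts are measured with an error set by counting.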

Other observations

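Carriers outside the name pattern moved in both directions as well. Of 18 other genes with an Slc name and at least 300 counts, 6 were called higher, 2 lower and 10 not, where 59.3% of all tested genes were called. The prostaglandin carrier *Slco2a1* was at 5.87, 4.17 and 3.18 CPM in Pdk4fl/fl and at 253, 323 and 343 CPM in Pdk4SMKO, a log2 fold change of 6.11 (SE 0.23, edgeR adjusted p = 1.88e-08). Its level in every Pdk4SMKO library was far above every Pdk4fl/fl library. The nucleotide sugar carriers *Slc35c1*, for GDP-fucose, and *Slc35d1* were called higher at 2.73 and 2.35, with *Slc35d2* at 2.09 and *Slc35g1* at 3.89. *Slc35f5* and *Slc35e2* were called lower at -2.20 and -2.70, and the mitochondrial sodium-calcium exchanger *Slc8b1* was higher at 1.34. Of the 9 SLCO genes of the list, 4 were tested, and *Slco2a1*, *Slco1a5* and *Slco4a1* were higher. All of these were chosen after their values were seen.

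Of the 161 carriers under 300 counts, 32 were tested, with 11 lower, 18 higher and 3 not called, and 45 had no count. Over all tested genes 59.3% were called, but a gene this low passes the filter largely through the genotype where it is high, so a high share of calls is built into this count. *Slc40a1*, the iron exporter ferroportin, had 4, 4 and 1 counts in Pdk4fl/fl and 88, 71 and 77 counts in Pdk4SMKO, a log2 fold change of 4.23 (SE 0.42, edgeR adjusted p = 7.2e-06). *Slc44a3* had no count in Pdk4fl/fl and 38, 44 and 47 counts in Pdk4SMKO, at least 10.6-fold higher against the floor of 3 counts per library. *Slc2a13*, the proton-coupled myo-inositol carrier, had no count against 30, 24 and 35 counts, at least 7.27-fold higher. *Slc17a8*, a vesicular glutamate carrier, had 32, 51 and 26 counts against 0, 0 and 1 counts, and the ratio of Pdk4fl/fl to Pdk4SMKO was 149 with a 95% interval of 26.1 to 5919 for counting error.

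The sodium pump, which drives the sodium-coupled carriers, had 5 of 8 listed genes tested. Its subunit gene *Atp1b1* was called higher at 1.76 and *Fxyd5* lower at -1.13. Of 12 partners and regulators of carriers, 5 were higher (*Emb*, *Wnk1*, *Wnk4*, *Sgk1* and *Ahcyl1*) and 2 lower (*Arl6ip5* and *Ahcyl2*). The share called over all tested genes was 59.3%. *Sgk1*, a kinase known to raise many carriers at the plasma membrane, was at 41.9, 44.5 and 33.4 CPM in Pdk4fl/fl and at 342, 406 and 376 CPM in Pdk4SMKO, a log2 fold change of 3.23 (SE 0.15, edgeR adjusted p = 4.45e-08). *Emb*, the chaperone of monocarboxylate carriers, was at 21.5 ± 2.91 CPM against 119 ± 57.5 CPM, while the related *Bsg* was not called at 0.12.

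The remaining marker lists gave these sums. Endothelial markers summed to 15.8 to 24.2 CPM in Pdk4fl/fl and 2.24 to 4.70 CPM in Pdk4SMKO, adipocyte markers to 11.1 to 20.5 CPM and 16.2 to 25.1 CPM, and Schwann cell markers to 16.04 to 21.8 CPM and 35.04 to 36.3 CPM. Proliferation markers summed to 392 to 469 CPM in Pdk4fl/fl and 234 to 390.5 CPM in Pdk4SMKO.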
